A study of Homo sapiens with 6 samples.

Results

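GDF15 and 9 further genes of the transforming growth factor beta (TGF-beta) family and its signaling route were examined in thyroid cancer cells after knockdown of GDF15. The genes were chosen by name: the ligands GDF15, TGFB1, TGFB2, TGFB3, INHBA and BMP4, the receptors TGFBR1 and TGFBR2, and the intracellular mediators SMAD3 and SMAD7. All 10 were found among the 34738 genes of the expression table, and 8 of them were among the 11867 genes tested, those with a mean level of at least 1 FPKM (mapped fragments scaled to gene length and to library size, the unit of level used here). TGFB3 and INHBA lay under that limit.

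The cells were KHM-5M, a human thyroid cancer line, and the study asked what silencing GDF15 changes in such cells. The siGDF15 group was transfected with a small interfering RNA against GDF15 and the control group (NC) was not, with 3 libraries per group, described as biological replicates. The control is given as negative control cells in the methods of the study, which also list a control small interfering RNA, as vector control cells in a legend and as a blank control in the deposited description. If the sequenced control was blank, effects of transfection itself and of GDF15 knockdown cannot be told apart, and if it received the control RNA both groups were transfected. The line is called KHM-5M after its deposited label, while a legend of the study names TPC-1. A single line was sequenced, without a second small interfering RNA and without added GDF15 protein.

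TGF-beta family ligands are secreted dimers that bring type I and type II receptor kinases together at the cell surface. The type I receptor then phosphorylates SMAD proteins, which enter the nucleus with SMAD4 and change transcription; TGF-betas and activins act through SMAD2 and SMAD3, and bone morphogenetic proteins (BMPs) through SMAD1, SMAD5 and SMAD9. GDF15 is a distant member of the family, induced by cellular stress, whose known receptor is GFRAL acting with the kinase RET, a receptor found mainly in the brainstem. TGF-beta is known for slowing the growth of normal thyroid cells and for promoting invasion in advanced thyroid cancer.

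The promoters of TGFB2 and TGFB3 are shown because RNA levels of these closely related ligands lay on opposite sides of their control levels, as described later. Each is the 250 bases before the gene's start in RefSeq (GRCh38.p14), written 5′ to 3′ on the strand of the gene. TGFB2 is taken from chr1:218345086-218345335, plus strand, and TGFB3 from chr14:75981996-75982245, minus strand. Capitals mark matches to the motifs named in the next paragraph.
TGFB2: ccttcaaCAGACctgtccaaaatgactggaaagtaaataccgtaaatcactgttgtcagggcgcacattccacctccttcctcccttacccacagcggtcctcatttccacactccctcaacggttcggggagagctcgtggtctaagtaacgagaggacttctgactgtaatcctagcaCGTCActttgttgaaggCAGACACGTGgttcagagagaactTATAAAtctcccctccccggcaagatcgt
TGFB3: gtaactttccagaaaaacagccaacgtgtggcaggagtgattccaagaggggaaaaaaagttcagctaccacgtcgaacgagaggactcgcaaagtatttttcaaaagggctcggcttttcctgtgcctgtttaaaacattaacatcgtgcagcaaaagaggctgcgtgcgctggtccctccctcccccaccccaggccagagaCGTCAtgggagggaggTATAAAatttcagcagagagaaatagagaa

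Motifs were searched on both strands in the same 250 bases for all 10 genes and for all 35114 RefSeq windows. For each gene a single window was taken, that with its start nearest the gene's edge in the expression table. RefSeq gives 8 windows for TGFBR1, 5 for SMAD3, 3 each for BMP4 and SMAD7 and 2 each for TGFBR2 and TGFB3. The GDF15 start used lies 11427 bases inside the span of the gene given below, and its window overlaps a GDF15 exon. Both printed windows hold the core promoter motif TATAAA, beginning 29 bases before the start in TGFB2 and 30 bases before it in TGFB3, a motif present in 10.7% of all windows. Both also hold the core of a cAMP response element (TGACG, read here on the opposite strand as CGTCA), at 70 and 46 bases before the start, present in 21.2% of all windows. In the TGFB2 window there were 2 matches to the SMAD-binding element CAGAC, at 243 and 53 bases before the start, and the match nearer the start overlaps the E-box CACGTG. The SMAD-binding element was found in 38.0% of all windows and the E-box in 6.35%. The GDF15 window held TATAAA, a single SMAD-binding element and 2 GC boxes (GGGCGG, present in 42.6% of windows), and that of TGFB1 held 6 GC boxes and no TATAAA. Other motifs were searched and matched in none of the 10 windows. They were the palindromic SMAD element GTCTAGAC (0.182% of all windows), the full cAMP response element TGACGTCA (1.65%), the AP-1 site TGANTCA (6.57%) and the C/EBP-ATF element TGATGNAA (3.14%). A match or its lack says only whether these letters are in the window.

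The libraries held between 51738814 and 68025163 counts, lowest in siGDF15 replicate 2. About 4 counts were taken to stand for 1 read pair, a set value, and on that basis a count of 0 allows up to 12 counts. Levels correlated at r of 0.984 to 0.991 within a group and 0.946 to 0.956 between groups. Mitochondrially encoded genes took 6.39% to 6.78% of counts in NC and 8.53% to 9.17% in siGDF15. The log2 fold changes given here are from edgeR's quasi-likelihood test with TMM factors, which were 1.03 to 1.04 in NC and 0.958 to 0.972 in siGDF15, whereas FPKM carries no such factors, so a log2 fold change lies a little above the log2 ratio of the FPKM values. Adjusted p-values are Benjamini-Hochberg values of that test over all tested genes, and a gene was called at an adjusted p under 0.05. Of the thyroid and epithelial markers, PAX8, a thyroid transcription factor, went from 59.1 ± 5.33 FPKM in NC to 79.4 ± 1.70 FPKM in siGDF15 (SD over 3 libraries), while TG, SLC5A5 and NKX2-1, which define differentiated thyroid cells, were under 1 FPKM and TSHR was not in the table used. The 12 thyroid and epithelial markers in the table summed to 173 to 210 FPKM in NC and 212 to 219 FPKM in siGDF15, with PAX8 and CDH1 higher and HHEX lower among the 8 tested, the CDH1 call being lost in 11 of 16 alternative settings. The 11 markers of other cell types in the table summed to 42.9 to 50.1 FPKM in NC and 42.6 to 48.4 FPKM in siGDF15. None of the 5 tested passed. These 5 were CD68, at 18.3 FPKM in NC and 16.9 FPKM in siGDF15, and COL3A1, at 15.1 and 15.8 FPKM, with COL1A2 (6.32 and 6.31 FPKM), COL1A1 (5.66 and 5.50 FPKM) and PDGFRB (1.10 and 1.05 FPKM). PTPRC, PECAM1, VWF, CDH5, CD3E and CHGA were under 1 FPKM.

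Of the 8 genes tested, 4 rose (TGFB1, TGFB2, TGFBR2 and SMAD3), 2 fell (GDF15 and TGFBR1) and 2 did not pass (BMP4 and SMAD7). Over all tested genes, 30% were called higher and 31.4% lower in siGDF15, so calls were common in this comparison. With a log2 fold change of at least 1 also required, only TGFB2 remained of the 8, beside 3.03% of all tested genes called higher and 4.78% called lower under that rule. FPKM values of the groups did not overlap for 6 of the 8 tested genes and 7 of all 10, against 68.4% of all tested genes. With 3 libraries per group the exact permutation test of a single gene cannot give a p under 0.1.

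**Figure D1:**
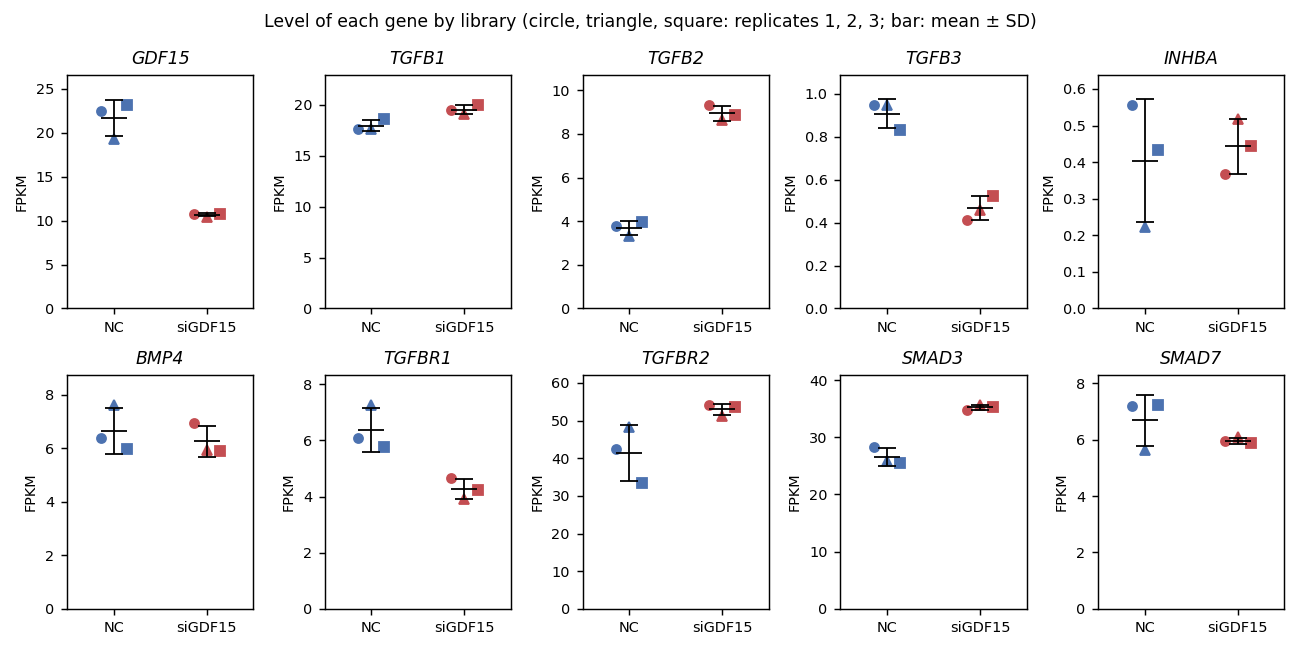
FPKM of the 10 genes (vertical axes, each from 0 and with its own scale) in the 3 NC libraries (blue) and the 3 siGDF15 libraries (red), with symbols for replicates and bars for the mean ± SD. The groups are apart for GDF15, TGFB1, TGFB2, TGFB3, TGFBR1, TGFBR2 and SMAD3, and overlap for INHBA, BMP4 and SMAD7.

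GDF15 (ENSG00000130513, chr19:18374731-18389176, plus strand) is the gene that was targeted. Its level was 22.4, 19.3 and 23.1 FPKM in NC replicates 1 to 3 and 10.8, 10.5 and 10.7 FPKM in siGDF15 replicates 1 to 3. Every siGDF15 library lay below every NC library, and the siGDF15 libraries lay close together. The mean fell from 21.6 ± 2.03 to 10.7 ± 0.166 FPKM (SD, n = 3), a fold of 0.492 in FPKM. In the test across all genes the log2 fold change was -0.92 ± 0.08 (SE, adjusted p = 2.4e-05, edgeR). The call held under all 16 alternative settings, with log2 fold changes between -1.02 and -0.86. GDF15 RNA was thus lowered but still present in every siGDF15 library, at 1260 to 1685 counts. In RNA of whole cultures, fewer cells that express a gene and less of its RNA per cell cannot be told apart, here and for the other genes.

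TGFB2 (ENSG00000092969, chr1:218345336-218444619, plus strand) encodes a TGF-beta ligand that needs the co-receptor TGFBR3 for efficient binding. It was at 3.80, 3.32 and 3.95 FPKM in NC and 9.32, 8.62 and 8.89 FPKM in siGDF15. The lowest siGDF15 library was above the highest NC library, with no overlap. The mean rose from 3.69 ± 0.33 to 8.94 ± 0.354 FPKM, a fold of 2.43 in FPKM, with a log2 fold change of 1.38 ± 0.08 (SE, adjusted p = 2.8e-06, edgeR). TGFBR3 itself was at 1.43 ± 0.154 FPKM in NC and 1.505 ± 0.0415 FPKM in siGDF15 and did not pass.

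TGFB1 (ENSG00000105329, chr19:41301587-41353922, minus strand), the most widely expressed TGF-beta, was at 17.7, 17.6 and 18.6 FPKM in NC and 19.5, 19.1 and 20.0 FPKM in siGDF15. The groups did not overlap, but the gap between NC replicate 3 and siGDF15 replicate 2 was small. The mean was 18.0 ± 0.567 FPKM in NC and 19.5 ± 0.441 FPKM in siGDF15, and the log2 fold change was 0.23 ± 0.05 (SE, adjusted p = 0.0041, edgeR). This call depended on the scaling: with total-count scaling and no TMM factors the log2 fold change was 0.12 with an adjusted p of 0.054 by edgeR. TGFB1 is also overlapped on the opposite strand by HNRNPUL1 over 6012 bases and by CCDC97 over 14702 bases. HNRNPUL1 was at 52.2 FPKM in NC and 41.5 FPKM in siGDF15, and since the strand setting of the counting is not given in the sources used here, reads of the genes cannot be told apart in the overlap.

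TGFB3 (ENSG00000119699, chr14:75958097-75981995, minus strand) encodes the TGF-beta best known for palate closure and scarless repair. Its level was 0.947, 0.945 and 0.830 FPKM in NC and 0.414, 0.459 and 0.525 FPKM in siGDF15, or 327 to 375 counts in NC and 140 to 208 counts in siGDF15. Every siGDF15 library lay below every NC library, opposite in direction to TGFB1 and TGFB2. The mean was 0.907 ± 0.067 FPKM in NC and 0.466 ± 0.056 FPKM in siGDF15, a fold of 0.514 in FPKM. It was not tested at the main limit. At a limit of 0.1 FPKM the log2 fold change was -0.88 ± 0.16 (SE, adjusted p = 0.0020, edgeR), and the exact two-sided permutation p of the FPKM values was 0.1, the smallest possible. The whole of TGFB3, 23899 bases, is overlapped on the opposite strand by IFT43, a ciliary transport gene, which was at 2.47 FPKM in NC and 2.88 FPKM in siGDF15. As for TGFB1, reads of TGFB3 and IFT43 cannot be told apart in the overlap, a limit that also holds for the shares and ratio below.

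Within each library, the shares of summed TGFB1, TGFB2 and TGFB3 FPKM moved with these levels, and these proportions are a description without a test. TGFB2 made up 16.3% ± 1.01 of the sum in NC and 30.9% ± 0.859 in siGDF15 (SD, n = 3). TGFB1 went from 79.6% ± 0.840 to 67.5% ± 0.679, and TGFB3 from 4.03% ± 0.422 to 1.61% ± 0.186. For none of the ligands did the shares of the groups overlap. The sum itself was 22.6 ± 0.777 FPKM in NC and 28.9 ± 0.662 FPKM in siGDF15, and TGFB2 was 4.09 ± 0.628 times TGFB3 in NC and 19.4 ± 2.85 times in siGDF15.

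**Figure D2:**
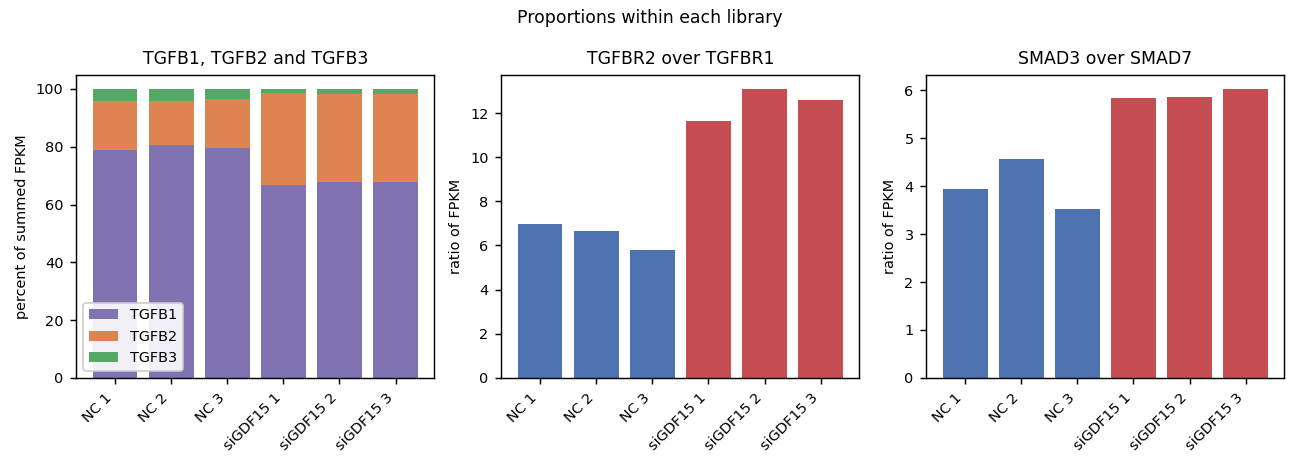
Left, percent of the summed FPKM of TGFB1, TGFB2 and TGFB3 contributed by each gene in each of the 6 libraries. Middle and right, the ratio of TGFBR2 to TGFBR1 FPKM and of SMAD3 to SMAD7 FPKM in each library (NC blue, siGDF15 red, bars from 0). TGFB2 takes 30.2% to 31.9% in siGDF15 and 15.2% to 16.9% in NC, and both ratios are higher in every siGDF15 library than in any NC library.

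INHBA (ENSG00000122641, chr7:41667168-41705335, minus strand) encodes the subunit of activin A. It was at 0.556, 0.222 and 0.434 FPKM in NC and 0.369, 0.517 and 0.443 FPKM in siGDF15, so all siGDF15 values lay within the range of NC. NC replicate 2 was the lowest, with 139 counts. The means were 0.404 ± 0.169 and 0.443 ± 0.0741 FPKM, with an exact two-sided permutation p of 0.8. At a limit of 0.1 FPKM the log2 fold change was 0.20 ± 0.31 (SE, adjusted p = 0.65, edgeR), so a difference larger than the spread between libraries was not seen. Without NC replicate 2 the log2 ratio of mean FPKM was -0.16, against 0.13 with it, so the sign rested on that library.

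BMP4 (ENSG00000125378, chr14:53949736-53956825, minus strand), a ligand that signals through SMAD1, SMAD5 and SMAD9, was at 6.37, 7.61 and 5.98 FPKM in NC and 6.93, 5.95 and 5.90 FPKM in siGDF15. The groups overlapped, with the highest value in NC replicate 2. Its log2 fold change was 0.02 ± 0.10 (SE, adjusted p = 0.88, edgeR), with a 95% confidence interval of -0.21 to 0.25. The interval leaves room for a change of about that size in either direction.

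TGFBR1 (ENSG00000106799, chr9:99104038-99153649, plus strand), the type I receptor kinase for TGF-beta, was at 6.07, 7.25 and 5.78 FPKM in NC and 4.64, 3.92 and 4.25 FPKM in siGDF15. No siGDF15 library reached the lowest NC library. The mean fell from 6.37 ± 0.777 to 4.27 ± 0.361 FPKM, with a log2 fold change of -0.47 ± 0.09 (SE, adjusted p = 0.0026, edgeR).

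TGFBR2 (ENSG00000163513, chr3:30606601-30694142, plus strand), the type II receptor that binds the ligand first, moved the other way. It was at 42.4, 48.2 and 33.5 FPKM in NC and 54.1, 51.3 and 53.6 FPKM in siGDF15, the highest level of the 10 genes in both groups. The groups did not overlap, although NC was spread widely and its replicate 2 came near the siGDF15 libraries. The mean rose from 41.4 ± 7.42 to 53.0 ± 1.45 FPKM, with a log2 fold change of 0.46 ± 0.11 (SE, adjusted p = 0.0062, edgeR). The ratio of TGFBR2 to TGFBR1 FPKM was 6.47 ± 0.617 in NC and 12.4 ± 0.739 in siGDF15.

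SMAD3 (ENSG00000166949, chr15:67063763-67195169, plus strand), the DNA-binding mediator of TGF-beta and activin signals, was at 28.3, 25.8 and 25.5 FPKM in NC and 34.7, 35.6 and 35.4 FPKM in siGDF15. All siGDF15 libraries were above all NC libraries. The mean rose from 26.5 ± 1.55 to 35.2 ± 0.445 FPKM, with a log2 fold change of 0.51 ± 0.05 (SE, adjusted p = 6.1e-05, edgeR).

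SMAD7 (ENSG00000101665, chr18:48919853-48950965, minus strand) is an inhibitory SMAD that TGF-beta itself induces and that blocks the type I receptor. It was at 7.19, 5.65 and 7.22 FPKM in NC and 5.96, 6.08 and 5.87 FPKM in siGDF15. NC replicate 2 was below every siGDF15 library and the other NC libraries were above them. The log2 fold change was -0.06 ± 0.10 (SE, adjusted p = 0.63, edgeR), with a 95% confidence interval of -0.29 to 0.17. Without NC replicate 2 it was -0.17 with an adjusted p of 0.043 in the same test, so this library decided the call. SMAD3 was 4.01 ± 0.516 times SMAD7 in FPKM in NC and 5.90 ± 0.107 times in siGDF15.

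Ordered by mean FPKM in NC, the genes ran TGFBR2, SMAD3, GDF15, TGFB1, SMAD7, BMP4, TGFBR1, TGFB2, TGFB3 and INHBA. The ranges of SMAD7, BMP4 and TGFBR1 overlapped, so their order was not resolved, and the other neighbours did not overlap. In siGDF15 the order was TGFBR2, SMAD3, TGFB1, GDF15, TGFB2, BMP4, SMAD7, TGFBR1, TGFB3 and INHBA. There TGFB1 stood above GDF15 and TGFB2 above BMP4, while BMP4 and SMAD7, and TGFB3 and INHBA, overlapped.

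The other genes of the pathway were taken from lists ordered by role, and 48 of 90 such genes were tested. Of these 13 rose, 11 fell and 24 did not pass, with a median log2 fold change of 0.05 beside 0.00257 over all tested genes. Over all tested genes, 30% were higher and 31.4% lower. The number that fell was the less steady of the counts, at 7 without siGDF15 replicate 2 and 6 without siGDF15 replicate 3.

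Among ligands of the TGF-beta and activin branch, 4 were tested and the only one not yet described was GDF11, an activin-like ligand, which fell (2.06 ± 0.11 to 1.64 ± 0.048 FPKM, log2 fold change -0.22, adjusted p = 0.029, edgeR). This call was lost without NC replicate 3, siGDF15 replicate 1 or siGDF15 replicate 3, with adjusted p-values of 0.073, 0.093 and 0.077 by edgeR. Of 3 tested ligands of the BMP branch, AMH and BMP6 fell and BMP4 did not pass, beside 31.4% called lower over all tested genes. AMH, the anti-Müllerian hormone, was at 9.07, 9.79 and 8.90 FPKM in NC and 3.78, 2.90 and 4.09 FPKM in siGDF15, with no overlap between groups. Its log2 fold change was -1.26 ± 0.12 (SE, adjusted p = 3.7e-05, edgeR). BMP6, a BMP known for inducing the iron hormone hepcidin, went from 2.91 ± 0.409 to 1.49 ± 0.177 FPKM (log2 fold change -0.86, adjusted p = 9.3e-04, edgeR).

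TGF-beta is secreted in a latent complex. Of 9 tested genes for latency and activation 3 rose and 3 fell, beside 30% called higher and 31.4% called lower over all tested genes. THBS1, thrombospondin 1, an activator of latent TGF-beta, was at 22.1, 13.6 and 31.4 FPKM in NC and 42.9, 37.7 and 39.3 FPKM in siGDF15. NC was widely spread, with replicate 2 lowest, and the groups did not overlap (log2 fold change 0.94 ± 0.25 SE, adjusted p = 0.011, edgeR). LTBP2, a matrix protein of the family named for binding latent TGF-beta, rose by 0.32 on the log2 scale. The integrin subunit ITGAV, part of integrins that release TGF-beta, rose by 0.33. The groups overlapped for ITGAV, at 8.61 FPKM in NC replicate 2 and 8.41 FPKM in siGDF15 replicate 2. Its call was lost with limma on log2(FPKM + 1) (adjusted p = 0.063) and on log2(FPKM + 0.1) (adjusted p = 0.065). LTBP4, which binds latent TGF-beta in the matrix, fell by 0.39 on the log2 scale, NRROS, a latency anchor best known from microglia, fell by 0.74, and FURIN, the protease that cleaves TGF-beta precursors, fell by 0.25. The FURIN call was lost without siGDF15 replicate 3, with an adjusted p of 0.058 by edgeR, and without siGDF15 replicate 1, with one of 0.050.

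Among 10 tested receptors, 3 rose and 3 fell, beside 30% called higher and 31.4% called lower over all tested genes. ACVR1B, the activin type I receptor (ALK4), was at 5.11, 6.09 and 4.88 FPKM in NC and 9.20, 8.86 and 9.40 FPKM in siGDF15, without overlap, and its log2 fold change was 0.88 ± 0.08 (SE, adjusted p = 4.0e-05, edgeR). ACVR2A, an activin type II receptor, also rose (log2 fold change 0.35, adjusted p = 0.021, edgeR), a call lost in 8 of 16 alternative settings, among them those without NC replicate 1, siGDF15 replicate 1 or siGDF15 replicate 2, with adjusted p-values of 0.075, 0.085 and 0.054 by edgeR. BMPR1A, a BMP type I receptor, fell from 4.85 ± 0.362 to 3.20 ± 0.237 FPKM (log2 fold change -0.49, adjusted p = 6.5e-04, edgeR). ENG (endoglin), an endothelial co-receptor, fell by 0.23 on the log2 scale (adjusted p = 0.046, edgeR), also a call lost in 8 of 16 settings, and it held in only 1 of the 6 fits that left out a library, the fit without NC replicate 2. Its adjusted p in the other 5 lay between 0.074 (without NC replicate 3, where the log2 fold change was -0.13) and 0.12 (without siGDF15 replicate 1 or 3). Of the GDF15 receptor, RET was at 4.43 ± 0.308 FPKM in NC and 4.07 ± 0.241 FPKM in siGDF15 and did not pass, and GFRAL was not in the table used.

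Of the 8 SMADs, all tested, SMAD3 rose, SMAD5 fell and 6 did not pass. The shares over all tested genes were 30% called higher and 31.4% called lower. SMAD5, a BMP-responsive SMAD, went from 7.92 ± 0.208 to 6.69 ± 0.257 FPKM (log2 fold change -0.14, adjusted p = 0.033, edgeR). The SMAD5 call was lost in 6 of 16 settings, with adjusted p-values of 0.13 without NC replicate 1, 0.050 without NC replicate 2, 0.12 without siGDF15 replicate 2 and 0.11 without siGDF15 replicate 3 by edgeR. SMAD2, the partner of SMAD3 in TGF-beta signaling, was at 2.10 ± 0.0592 and 2.07 ± 0.0896 FPKM, and SMAD4 at 3.53 ± 0.122 and 3.27 ± 0.200 FPKM. SMAD6, the other inhibitory SMAD, was at 2.15 ± 0.487 FPKM in NC and 1.53 ± 0.0967 FPKM in siGDF15 with an adjusted p of 0.054 by edgeR.

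Of 6 tested extracellular inhibitors, 2 rose and 2 fell, beside 30% called higher and 31.4% called lower over all tested genes. NBL1 (DAN), a secreted BMP antagonist, was at 23.3, 23.3 and 23.7 FPKM in NC and 43.5, 46.7 and 45.9 FPKM in siGDF15, far apart relative to the spread within groups. Its log2 fold change was 1.06 ± 0.05 (SE, adjusted p = 1.0e-06, edgeR). NOG (noggin), a BMP antagonist, rose as well, from 2.24 ± 0.483 to 3.42 ± 0.332 FPKM (log2 fold change 0.72, adjusted p = 0.0093, edgeR). CHRD (chordin), another BMP antagonist, fell by 0.76 on the log2 scale (adjusted p = 0.014, edgeR) and TWSG1, which binds chordin and BMPs, by 0.21 (adjusted p = 0.042, edgeR). The CHRD call was lost without siGDF15 replicate 2, with an adjusted p of 0.051 by edgeR. The TWSG1 call was lost without NC replicate 1 or 2 or siGDF15 replicate 2 or 3, with adjusted p-values of 0.081, 0.094, 0.093 and 0.15 by edgeR.

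Among the 16 intracellular regulators, all tested, 6 rose (TGIF2, FKBP1A, NEDD4L, PMEPA1, USP15 and STRAP) and none fell. The shares called over all tested genes were 30% higher and 31.4% lower. TGIF2, a repressor of SMAD-driven transcription, went from 6.25 ± 0.141 to 8.37 ± 0.0952 FPKM (log2 fold change 0.53, adjusted p = 6.3e-05, edgeR). FKBP1A, which binds and holds the type I receptor inactive, went from 42.3 ± 1.73 to 50.5 ± 0.895 FPKM (log2 fold change 0.36, adjusted p = 3.2e-04, edgeR). NEDD4L, a ubiquitin ligase that turns over activated SMADs, went from 2.93 ± 0.617 to 5.11 ± 0.178 FPKM (log2 fold change 0.91, adjusted p = 5.0e-04, edgeR). PMEPA1 and STRAP are inhibitors of the pathway, and USP15 is a deubiquitinase that stabilizes the type I receptor. The median log2 fold change of the 16 was 0.06. STRAP lost its call in 4 and USP15 in 2 of 16 settings, and the FPKM values of the groups overlapped for both.

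**Figure D3:**
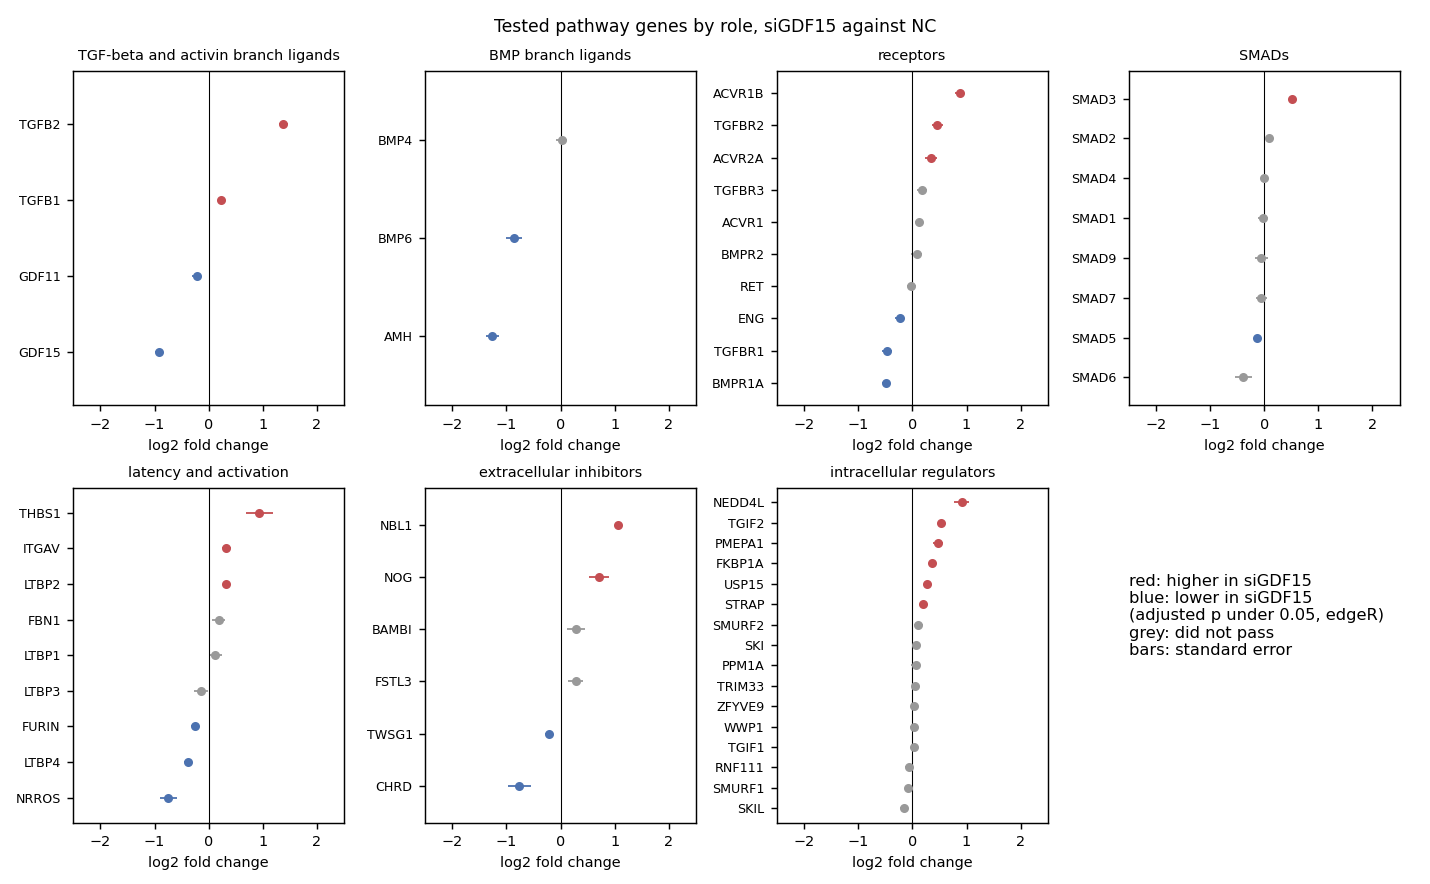
Log2 fold change of siGDF15 against NC (horizontal axis) with its standard error for each tested gene of the 7 role lists. Red marks genes called higher, blue genes called lower and grey genes that did not pass. TGFB2 (1.38), NBL1 (1.06), THBS1 (0.94), NEDD4L (0.91) and ACVR1B (0.88) lie farthest to the right of their panels. AMH (-1.26) lies farthest to the left of the BMP ligands.

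Genes known to be induced by TGF-beta were then listed, and 23 of 25 were tested. Of these 8 rose, 3 fell and 12 did not pass, with a median log2 fold change of 0.06. The shares called over all tested genes were 30% higher and 31.4% lower. CDKN2B, which encodes the cell cycle inhibitor p15, was at 2.055, 2.299 and 1.983 FPKM in NC and 8.755, 8.996 and 9.521 FPKM in siGDF15, without overlap and the largest change of the list. Its log2 fold change was 2.21 ± 0.08 (SE, adjusted p = 4.6e-07, edgeR). The actin-binding tropomyosin TPM1 rose from 15.1 ± 2.63 to 23.2 ± 0.403 FPKM (log2 fold change 0.72, adjusted p = 6.4e-04, edgeR), and LTBP2, described with the latency genes, is also in this list. The other risers, outside the rule for named genes and given after their values were seen, were CCN1, ACTA2, FN1, PMEPA1 and RHOB. Of these ACTA2, a smooth muscle actin, lost its call without NC replicate 1 or siGDF15 replicate 1, with adjusted p-values of 0.065 and 0.083 by edgeR, and RHOB, a small GTPase, lost its call in 7 of 16 settings, with 0.063 without NC replicate 1, 0.055 without siGDF15 replicate 2 and 0.060 without siGDF15 replicate 3. CCN1, a matricellular protein, was at 43.5, 29.9 and 60.3 FPKM in NC and 85.6, 89.4 and 89.6 FPKM in siGDF15, the other gene of the list with a log2 fold change of at least 1 (1.09 ± 0.21 SE, adjusted p = 0.0023, edgeR).

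The targets of TGF-beta that fell numbered 3, and 5 without NC replicate 2, and their number rose to 6 with total-count scaling and 7 with limma on FPKM. KLF10, an immediate TGF-beta-induced transcription factor, fell from 13.9 ± 0.990 to 7.42 ± 0.219 FPKM (log2 fold change -0.81, adjusted p = 2.1e-05, edgeR). ADAM19, a membrane protease, fell by 0.59 on the log2 scale (adjusted p = 0.0073, edgeR) and TNC, the matrix glycoprotein tenascin C, by 0.35 (adjusted p = 0.011, edgeR). TNC was highest in NC replicate 2, at 34.9 FPKM beside 28.6 and 26.0 FPKM, and without that library its log2 fold change was -0.23 (adjusted p = 0.0042, edgeR). CCN2, at 21.8, 16.0 and 34.0 FPKM in NC and 32.0, 30.7 and 32.8 FPKM in siGDF15, overlapped between groups and did not pass (adjusted p = 0.083, edgeR). SNAI1, an inducer of epithelial to mesenchymal transition, was at 3.997 ± 0.0860 and 3.106 ± 0.0853 FPKM and did not pass either (adjusted p = 0.078, edgeR).

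Of 10 genes known to respond to BMPs, 8 were tested, none rose, 2 fell and 6 did not pass. Their median log2 fold change was -0.18, and the shares called over all tested genes were 30% higher and 31.4% lower. The number that fell was 4 without NC replicate 3, 4 with total-count scaling and 4 at the limit of 0.1 FPKM. ID1, an inhibitor of differentiation induced by SMAD1 and SMAD5, was at 73.6, 68.4 and 81.8 FPKM in NC and 33.8, 33.3 and 33.3 FPKM in siGDF15. The groups were far apart and the siGDF15 libraries almost equal, with a log2 fold change of -1.05 ± 0.07 (SE, adjusted p = 6.7e-06, edgeR). ID3 was at 12.7, 10.1 and 17.2 FPKM in NC and 7.92, 7.13 and 6.64 FPKM in siGDF15, without overlap (log2 fold change -0.78 ± 0.18 SE, adjusted p = 0.0054, edgeR).

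**Figure D4:**
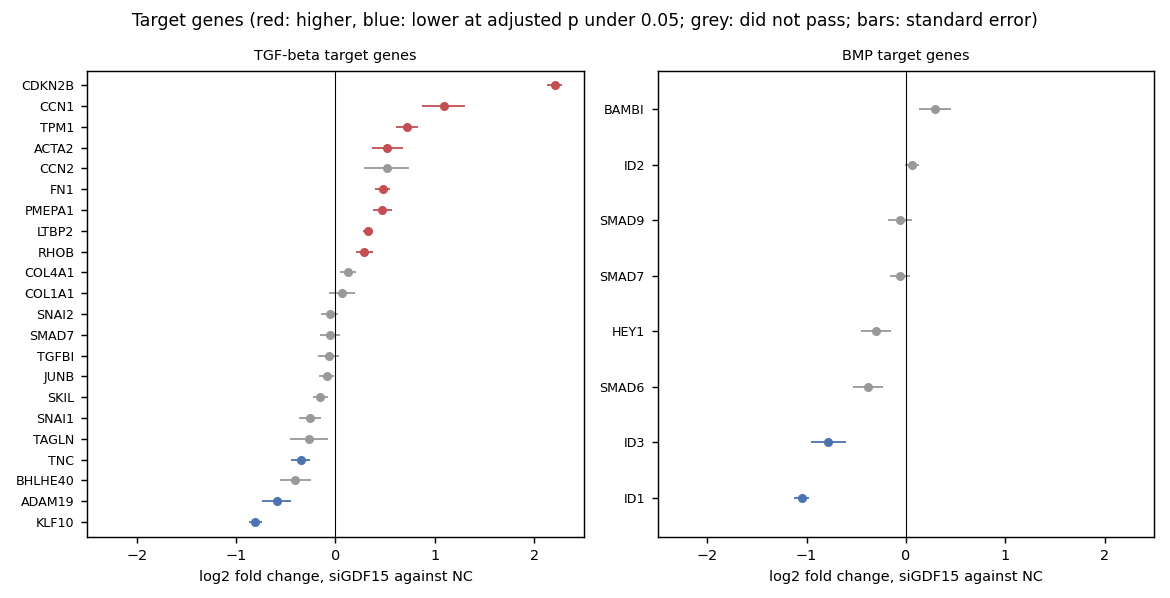
Log2 fold change of siGDF15 against NC (horizontal axis) with its standard error for the tested TGF-beta targets reported here (left) and the 8 tested BMP targets (right). Red marks genes called higher, blue genes called lower and grey genes that did not pass. CDKN2B stands apart at 2.21, and ID1 (-1.05) and ID3 (-0.78) are the BMP targets called lower.

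The deposited annotation places 92 genes in the KEGG TGF-beta signaling pathway, of which 62 were tested, 17 rose and 17 fell, with a median log2 fold change of 0.02, beside 30% higher and 31.4% lower over all tested genes. With total-count scaling 10 rose and 24 fell, a scaling under which 2701 of all tested genes were called higher and 4679 lower. Those of this set that fell by at least 1 on the log2 scale were AMH and ID1, given above, and RBL1 and PPP2R1B, named after their values were seen. RBL1 encodes the pocket protein p107, a cell cycle repressor, and went from 5.41 ± 0.436 to 1.68 ± 0.0991 FPKM (log2 fold change -1.58, adjusted p = 1.9e-06, edgeR). PPP2R1B, a scaffold subunit of protein phosphatase 2A, went from 9.811 ± 0.479 to 3.999 ± 0.204 FPKM (log2 fold change -1.19, adjusted p = 2.0e-06, edgeR). The 3 that rose by that much were TGFB2, NBL1 and CDKN2B.

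Transcription factors known to control GDF15 were also counted, and of 5 tested 3 rose and 1 fell, beside 30% called higher and 31.4% called lower over all tested genes. ATF4, the effector of the integrated stress response, fell from 192 ± 7.21 to 140.3 ± 0.545 FPKM (log2 fold change -0.35, adjusted p = 2.6e-04, edgeR). DDIT3 (CHOP), CEBPB and EGR1, named after their values were seen, rose with log2 fold changes of 0.48, 0.29 and 0.97.

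The 5 tested genes whose library-scaled log2 counts followed GDF15 most closely over the 6 libraries were USP39, ARMC1, STAMBPL1, SDHAF2 and GARS1, with Pearson r of 0.999 or more. Their log2 fold changes were -0.50, -0.33, -0.89, -0.70 and -0.37. These genes were picked for the highest r among all 11867 tested genes, over only 6 libraries. The correlations take in the difference between 2 groups and the spread of replicates within each group. They are given as a description over libraries that share their group.

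**Figure D5:**
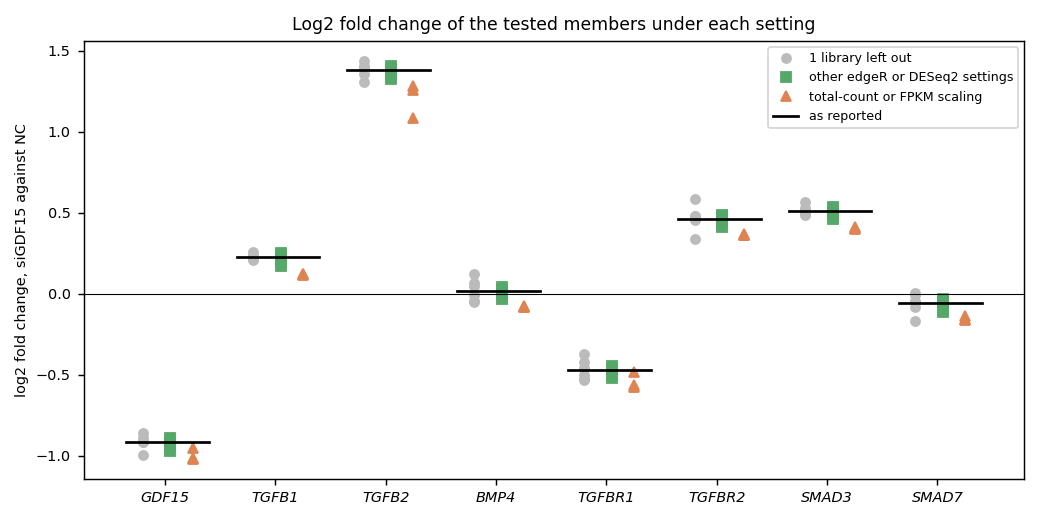
Log2 fold change of siGDF15 against NC (vertical axis) for the 8 tested genes under the reported settings (black line), with 1 library left out (grey circles), with other edgeR or DESeq2 settings (green squares) and with total-count or FPKM scaling (orange triangles). GDF15 stays between -1.02 and -0.86 and TGFB2 between 1.09 and 1.44, TGFB1 comes down to 0.12, and BMP4 and SMAD7 lie around 0.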

How the data were processed

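RNA of a human thyroid cancer line was sequenced in 3 NC and 3 siGDF15 libraries. The submitters' processing notes name fastp, HISAT2, StringTie, edgeR and the GRCh38 build, and the role of strand in the counting is not given in the sources used here. The deposited table holds expected counts and FPKM per gene and library, both made by the authors, beside gene annotation. The expected counts, worked out from transcript coverage, were whole numbers in the deposited table and were used as they stood.

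The counts were fitted with edgeR 4.0.16 (R 4.3.3), TMM factors and the quasi-likelihood test, two-sided, on genes whose mean FPKM reached 1, with Benjamini-Hochberg adjustment over all 11867 genes. limma 3.58.1 and DESeq2 1.42.0 served as alternatives, and the script was tested on simulated data. Exact permutation tests compared FPKM of single genes. Confidence intervals are at 95% from the edgeR fit. Intervals and the floor of 12 counts cover counting error and the spread between these libraries only. Promoter windows, 250 bases each, come from RefSeq, with a single window for each of the 10 genes.

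The genes, lists and tests were chosen with earlier results of these data known. Named genes were all 10 members, up to 3 genes with the smallest adjusted p-values in each direction from each role or target list, the 5 genes most like GDF15, and markers by their list. TGFBR3, RET, SMAD2, SMAD4, SMAD6, CCN2 and SNAI1, which did not pass, are named outside this rule. Alternatives were other scalings, filters, pseudocounts, tests, the replicate block and each library left out. Some genes of the lists were counted but are not reported here by name.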

Additional observations from a re-analysis of the deposited data

How the results depend on the processing

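Over 16 alternative settings, GDF15, TGFB2, TGFBR1, TGFBR2 and SMAD3 kept their direction and their call in each, and no called value changed sign. The values that were not called did so: BMP4 in 8 of 16 settings (-0.08 to 0.12), SMAD7 in 1 of 16 and the log2 ratio of INHBA in 1 of 8 (-0.16 to 0.43). Of 306 recomputed values and counts, 8 became stronger, 12 weaker and 286 were labelled the same. A fold change kept that label if its call did not change, even where an uncalled value changed sign. For TGFB3 and INHBA it stood for a shift within the spread between libraries. Counts kept it within a set ratio, as where 13 role genes that rose became 9 with limma on log2(FPKM + 1). Total-count scaling moved the median log2 fold change of all tested genes to -0.10. The genes called higher then made up 36.6% of all calls, against 48.93% as reported and 52.07% with upper-quartile factors. TGFB1 lost its call with total-count scaling (0.12), without the filter on low values (0.17), and with limma on log2(FPKM + 1) (0.12, adjusted p = 0.052) or log2(FPKM + 0.1) (0.12, adjusted p = 0.053). TGF-beta targets that fell numbered 6 with total-count scaling and 7 with either limma fit, BMP targets that fell 4 with total-count scaling and 4 at the limit of 0.1 FPKM, and KEGG pathway genes that rose 10 with total-count scaling, 11 without a filter and 10 with either limma fit, beside 24, 18 and 24 that fell. The cause was not tested. Under the rule that also asks for a log2 fold change of at least 1, 1 member was higher and 0 lower. With each library left out, the log2 fold change of SMAD7 ran from -0.17 to 0.0041, the role genes that fell from 6 to 11, the TGF-beta targets that fell from 3 to 5 and the BMP targets that fell from 2 to 4. The lowest value of SMAD7 came without NC replicate 2.

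With the replicate number as a block, 3391 genes were called higher and 3515 lower, against 3565 and 3721 as reported. Samples of the same number did not deviate together (r of 0.028, -0.075 and 0.046), so the numbers are not taken as pairs. In the fit with the replicate block 4 members were higher and 2 lower, with a log2 fold change of -0.91 for GDF15 and 1.39 for TGFB2. INHBA and TGFB3 had the lowest counts of the members, between 139 and 375.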

Other observations

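The coefficient of variation of FPKM over the libraries was larger in NC than in siGDF15 for 9 of the 10 genes, TGFB3 being the exception, and for 62.5% of all 11867 tested genes. Its median over the tested genes was 6.82% in NC and 4.84% in siGDF15. For GDF15 it was 9.39% in NC and 1.56% in siGDF15, for TGFBR2 17.9% and 2.73%, and for SMAD7 13.4% and 1.80%. NC replicates 2 and 3 stood at opposite ends of NC for 7 of the 10 genes, against 58.8% of all tested genes: replicate 2 was lowest and replicate 3 highest of the group for GDF15, TGFB1, TGFB2 and SMAD7, and replicate 2 was highest and replicate 3 lowest for BMP4, TGFBR1 and TGFBR2. THBS1, CCN1, CCN2 and ID3, named after their values were seen, were also lowest in NC replicate 2 and highest in NC replicate 3. Replicate 3 held the lowest NC value for 43.7% and the highest for 35.9% of tested genes, and replicate 2 the lowest for 35.3% and the highest for 43.9%.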
